A study of Patiria miniata with 6 samples.

Results

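The Hedgehog genes described here are 5 loci of the bat star Patiria miniata, 4 named Pm-Hh_1 and 1 named Pm-Smo, out of 80165 loci in the count files. They were chosen by gene name, as every locus whose name in the authors' deposited table begins with the symbol of a Hedgehog ligand, Patched, Smoothened, Gli, Sufu, Dispatched or Hhip. No named locus matched as Patched, Sufu or Hhip. Only loci among the 27630 of that table could carry a name, so such genes may lie among the unnamed loci. The names Pm-GliA and Pm-Disph1 fall outside the spelling of the rule and are described separately, with the rest of the pathway. RNA came from pooled hatched blastulae grown from zygotes injected with a morpholino antisense oligonucleotide (MASO), a synthetic strand that binds an RNA, at 600 µM. The control MASO group held 3 libraries at 30 hours post fertilization (hpf) and received a standard control MASO, and the Pm-Tbr MASO group held 3 libraries at 36 hpf and received a MASO against the T-box transcription factor Pm-Tbr. Age and morpholino therefore cannot be told apart in any comparison. Embryos that had arrested or developed abnormally were discarded before extraction, so both groups represent embryos that passed a sort by tracer and morphology. The comparison addressed which transcripts are sensitive to loss of Pm-Tbr.

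Hedgehog is a secreted signal that is cleaved, carries lipids and is released from its source cells by Dispatched. Patched, its receptor, holds the membrane protein Smoothened inactive until the ligand binds, after which Smoothened acts through the Gli transcription factors, which Sufu, protein kinase A and casein kinase 1 otherwise restrain. In vertebrates much of this relay takes place in the primary cilium. In sea urchin embryos the ligand gene is known from the endoderm and the receptor genes from the neighbouring mesoderm, where the signal acts on mesoderm derivatives.

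Counts in loci were 17795136 to 28167566 per library. Levels are given as CPM, a locus's count scaled to a common library total. The quasi-likelihood test of edgeR, at an adjusted p under 0.05, called 2.28% of the 44120 tested loci, 0.922% lower and 1.36% higher in Pm-Tbr MASO embryos. The groups did not overlap in CPM at 26.5% of tested loci, and the log2 fold change was below 0 at 49.4%. The transcript of the targeted gene was not analysed here. Of the stage and territory markers, 2 of 7 loci of the endoderm list were called lower, Pm-Eve and 1 of 2 Pm-Bra loci. The median log2 fold change over the 7 was -0.95. The list's summed level was 1881 to 2099 CPM in control MASO libraries and 1172 to 1299 CPM in Pm-Tbr MASO libraries. Most of it came from Pm-Otx and Pm-FoxA, which had negative values and were not called. In the mesoderm list 1 of 3 loci was called lower, with a median of -0.94 over the 3 and sums of 360 to 484 CPM and 151 to 189 CPM. The ectoderm and apical list held 10 loci under 7 names, so some are loci of the same gene name. Of the 10 loci, 6 were called lower, with a median log2 fold change of -2.31 over the 10. Their sums were 600.2 to 787 CPM and 52.2 to 146 CPM. In the late differentiation list 0 of 6 were called, with sums of 48.9 to 78.0 CPM and 54.2 to 70.4 CPM. The replicate block called 4.26% of all tested loci lower. In these lists it called 4 of 7, 2 of 3, 10 of 10 and 0 of 6 loci lower, and neither fit called a rise in them. Their part in the results below was not tested. In pooled embryos, fewer cells that transcribe a gene and less RNA in each such cell cannot be told apart.

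The Hedgehog ligand name fell at 3 of its 4 loci, so 3 of the 5 members were called lower, where 0.922% of all tested loci were. Among the 12599 tested loci with a gene name, 218 were called lower. A fit limited to loci above 2 CPM in 3 libraries called 624 of 27630 lower, and the authors' table that gives names also holds 27630 loci. The 3 fallen loci exceeded 2 CPM in control MASO libraries only. Whether that level decided which loci were named was not tested, so the count of members called describes them only. The loci on scaffold 2917 and the first and second loci on scaffold 3891 were 6.19-fold, 6.78-fold and 8.18-fold lower in Pm-Tbr MASO embryos. The fourth, on scaffold 335, had a positive value that did not pass the test. Pm-Smo, the Smoothened name, did not pass either.

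The locus XLOC_038706, on scaffold 2917 from 30061 to 61960 on the plus strand, belongs to gene model PMI_018620. Its level was 3.95, 3.49 and 4.09 CPM in control MASO replicates 1, 2 and 3, and 0.408, 0.502 and 0.950 CPM in the matching Pm-Tbr MASO libraries. All 3 Pm-Tbr MASO libraries lay below all 3 controls, and replicate 3 was the highest of the knockdown libraries. The means were 3.84 ± 0.316 and 0.620 ± 0.290 CPM (SD, n = 3 per group), with a log2 fold change of -2.63 ± 0.44 SE and an adjusted p of 0.0318 in edgeR's quasi-likelihood test.

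Both loci on scaffold 3891 belong to gene model PMI_014121. The first, XLOC_046372, runs from 2023 to 5124 on the plus strand, and the second, XLOC_046378, from 6243 to 8445 with no strand assigned, so that 1118 bases separate them. The first held 4.41, 4.74 and 4.33 CPM in the control MASO libraries and 0.408, 0.468 and 1.12 CPM in the Pm-Tbr MASO libraries. The second held 5.79, 4.85 and 3.69 CPM in controls and 0.408, 0.401 and 0.950 CPM after the Pm-Tbr MASO. At both loci the groups did not overlap and Pm-Tbr MASO replicate 3 was again the highest of its group. Their log2 fold changes were -2.76 ± 0.47 SE (adjusted p = 0.0330) and -3.03 ± 0.48 SE (adjusted p = 0.0296, edgeR quasi-likelihood test). With the counts of the gene model added up, the value was -2.90 and the adjusted p 0.0279.

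**Figure D1:**
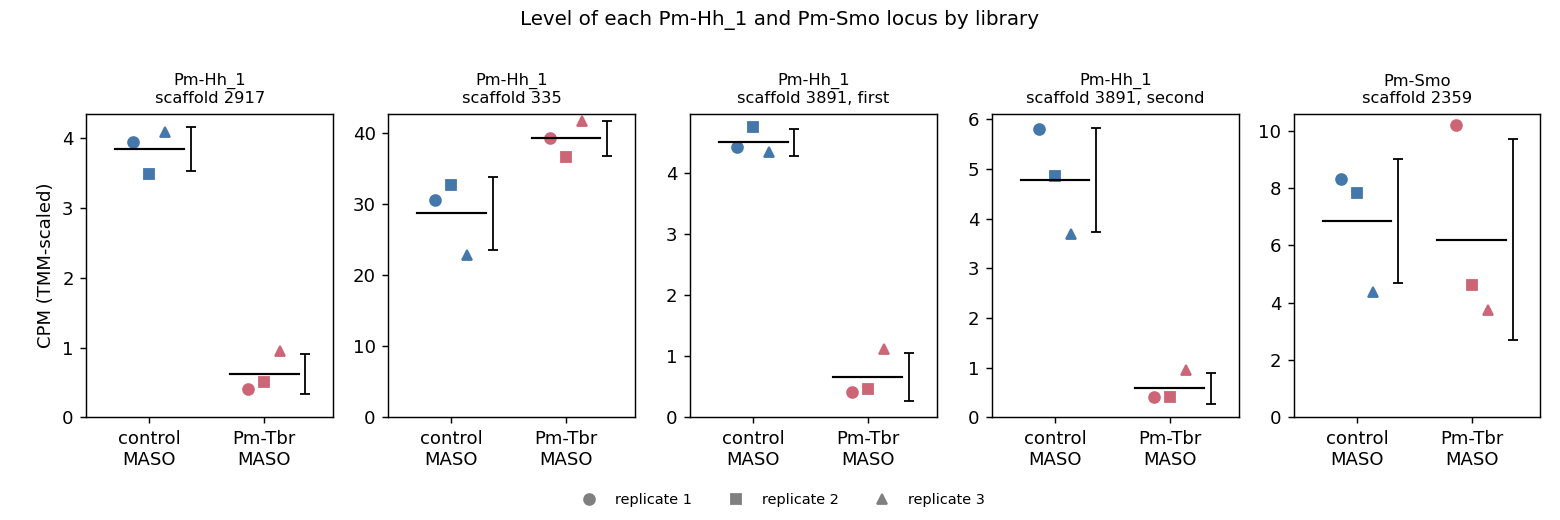
CPM (vertical axis, scaled by TMM, each panel with its own range starting at 0) in the 3 control MASO (blue) and 3 Pm-Tbr MASO (red) libraries for the 4 Pm-Hh_1 loci and Pm-Smo. Symbols give the replicate number, horizontal lines the mean and error bars 1 SD. At 3 Pm-Hh_1 loci every Pm-Tbr MASO library lies far below the controls, on scaffold 335 every one lies above them, and at Pm-Smo the groups overlap.

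These values rest on few reads in the knockdown libraries. The 3 loci held 7, 7 and 7 counts in Pm-Tbr MASO replicate 1, against 103, 115 and 151 in control MASO replicate 1. A count of 7 has an exact Poisson 95% interval of 2.81 to 14.4, which covers counting error only and still lies below every control count at these loci, the lowest of which was 93. Over the 3 loci the control MASO libraries held 1030 counts and the Pm-Tbr MASO libraries 116. The fall was present in each pair of same-numbered libraries. On scaffold 2917 the log2 differences were -3.27, -2.80 and -2.11 for replicates 1, 2 and 3. At the first locus on scaffold 3891 they were -3.43, -3.34 and -1.95. At the second they were -3.83, -3.59 and -1.96, so pair 3 gave the smallest difference at all 3 loci. Under the replicate block, which called 10.1% of all tested loci and 4.26% of them lower, the 3 loci had adjusted p values of 0.00996, 0.0105 and 0.0110. The call at each of the 3 loci was lost on leaving out any 1 library other than Pm-Tbr MASO replicate 3, with adjusted p from 0.0589 to 0.124, while the log2 fold changes without 1 library stayed between -3.55 and -2.43. In DESeq2, which called 9.32% of all tested loci, and in the edgeR exact test, which called 7.65%, the adjusted p lay between 5.30e-07 and 7.87e-05.

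Within a library, the highest count among the 3 fallen loci exceeded the lowest by 1.47, 1.39 and 1.17 times in control MASO replicates 1, 2 and 3, and by 1.25 and 1.18 times in Pm-Tbr MASO replicates 2 and 3, with equal counts in replicate 1. A pair of these loci share a gene model and all share a name, so they are not independent measurements of 3 genes. Reads aligned to several places were left out of the counts, and whether the scaffolds hold copies of 1 gene cannot be told from the tables. Among the 407 loci called lower, the 3 ranked 75th, 56th and 38th by the size of the fall.

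The fourth Pm-Hh_1 locus, XLOC_042119, lies on scaffold 335 from 14732 to 36323 on the plus strand, in gene model PMI_003040. It held 30.6, 32.7 and 22.9 CPM in the control MASO libraries and 39.4, 36.7 and 41.7 CPM in the Pm-Tbr MASO libraries. The groups did not overlap here either, with the knockdown libraries above, which in that direction was true of 13.3% of all tested loci. The log2 fold change of 0.45 ± 0.22 SE did not pass the test (adjusted p = 0.310), nor did it with the replicate block (adjusted p = 0.210).

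This locus held most of the Pm-Hh_1 reads. The split of those reads between loci is a measure within each library that needs no scaling. Since the 3 loci set against it here are those called lower, a lower share in the Pm-Tbr MASO libraries follows from that choice, and the shares describe the calls without testing them. The 3 fallen loci took 31.6%, 28.6% and 34.6% of all Pm-Hh_1 counts in control MASO replicates 1, 2 and 3, with Wilson 95% intervals, which cover counting error only, reaching from 26.1% to 37.8%. In the Pm-Tbr MASO replicates they took 3.02%, 3.60% and 6.75%, with intervals reaching from 1.98% to 8.70%. The mean share went from 31.6 ± 3.02% to 4.46 ± 2.01% (SD, n = 3 per group). The shares compare reads, not transcripts, since CPM is not corrected for transcript length.

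**Figure D2:**
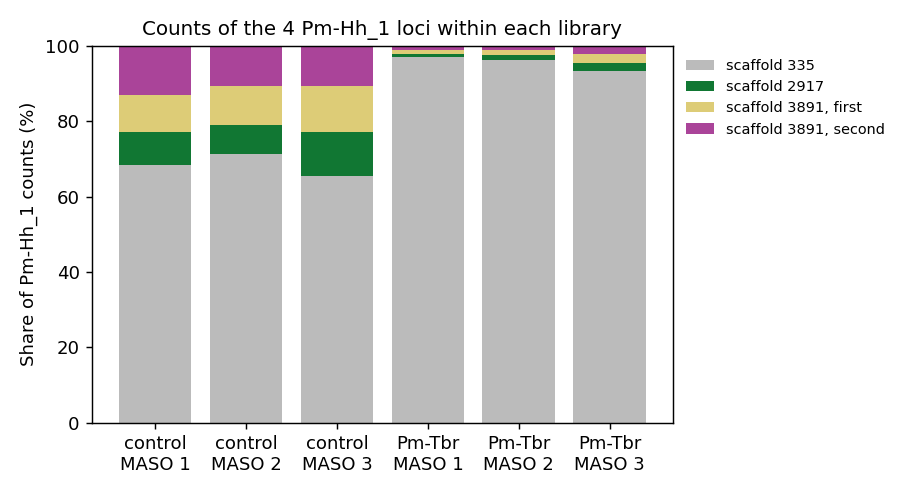
Share of all Pm-Hh_1 counts (percent, vertical axis) at each of the 4 loci, stacked, in each of the 6 libraries. The coloured parts, the 3 loci on scaffolds 2917 and 3891, shrink from 28.6% to 34.6% in control MASO libraries to between 3.02% and 6.75% in Pm-Tbr MASO libraries.

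Summed over the 4 loci, Pm-Hh_1 did not differ beyond the spread between libraries. The sum was 44.7, 45.8 and 35.0 CPM in the control MASO libraries and 40.6, 38.0 and 44.7 CPM in the Pm-Tbr MASO libraries, with overlapping groups. The means were 41.8 ± 5.93 and 41.1 ± 3.37 CPM (SD, n = 3 per group; exact two-sided permutation p = 0.90). In a fit where loci of 1 gene name were added up, Pm-Hh_1 had a value of -0.04 on the log2 scale (adjusted p = 0.946, edgeR quasi-likelihood test). The direction of the Hedgehog ligand thus differs with the unit counted, falling at the loci of 2 gene models and not for the name as a whole.

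The 6 other loci with a position on the 4 scaffolds of the members, that of Pm-Smo included, did not pass. Their log2 fold changes ran from -0.16 to 0.54, with adjusted p of at least 0.549 in edgeR's quasi-likelihood test. On scaffold 3891 the ribosomal protein gene Pm-Rps27, which begins beyond the second Pm-Hh_1 locus, had a value of -0.16 ± 0.25 SE, and the small GTPase gene Pm-Rab8 one of -0.02 ± 0.34 SE. On scaffold 2917 Pm-Cern had a value of 0.54 ± 0.44 SE. On scaffold 335 the dynactin subunit gene Pm-Dctn4 and the ABC transporter name Pm-Abcc10 had values of -0.07 and -0.02. None of these 6 loci was called, where 2.28% of all tested loci were, so the absence of calls among so few loci says little about the falls at Pm-Hh_1.

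Pm-Smo, XLOC_032850, lies on scaffold 2359 from 20106 to 23562 on the minus strand. Smoothened is the membrane protein that passes the signal on when Patched is occupied. Its locus held 8.32, 7.82 and 4.37 CPM in the control MASO libraries and 10.2, 4.61 and 3.75 CPM in the Pm-Tbr MASO libraries. The groups overlapped, and the spread within a group was wider than the difference between the means of 6.84 ± 2.15 and 6.19 ± 3.51 CPM (SD, n = 3 per group). The log2 fold change was -0.15 ± 0.45 SE (adjusted p = 0.892, edgeR quasi-likelihood test), a precision at which a change of either sign could be missed. Replicate 3 was the lowest library in both groups, and the 3 pairs gave log2 differences of 0.29, -0.76 and -0.22, so the sign turned between pairs. The sign also turned when 1 library was left out, to 0.02 without the first control, to 0.03 without Pm-Tbr MASO replicate 2 and to 0.11 without Pm-Tbr MASO replicate 3.

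**Figure D3:**
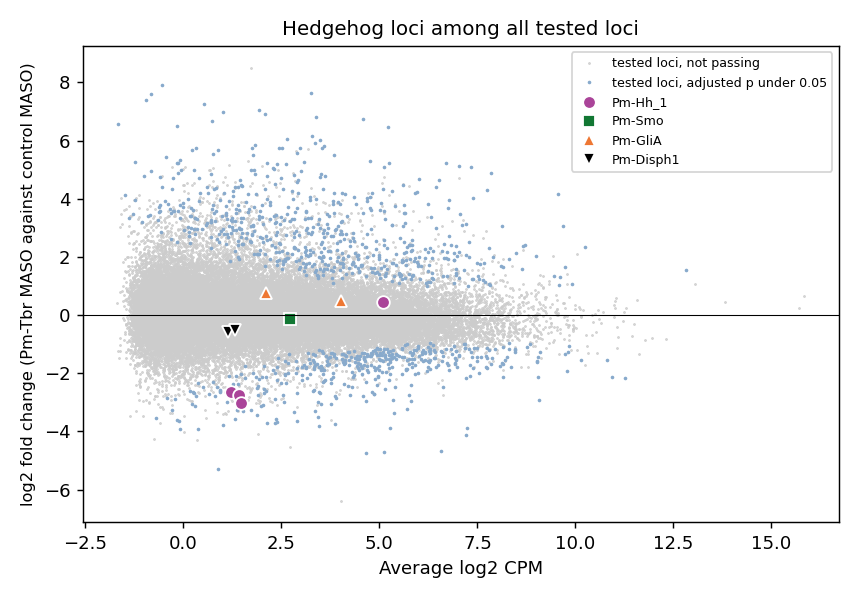
Log2 fold change (vertical axis) against average log2 CPM (horizontal axis) for the 44120 tested loci, with the Pm-Hh_1, Pm-Smo, Pm-GliA and Pm-Disph1 loci marked. The 3 fallen Pm-Hh_1 loci sit together between -3.03 and -2.63, apart from the fourth at 0.45.

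Gli and Dispatched names lie outside the rule for members and were added with their values known. The Gli transcription factors are the end of the relay, and 2 loci carried the name Pm-GliA. The one on scaffold 892 from 56311 to 105690 held 14.4, 18.1 and 8.07 CPM in controls and 24.6, 20.6 and 10.9 CPM after the Pm-Tbr MASO. Within each replicate number the knockdown library was the higher, while across numbers the groups overlapped. The one on scaffold 12146 from 4 to 43397 held 3.61, 3.38 and 2.42 CPM in controls and 6.18, 5.95 and 3.63 CPM after the Pm-Tbr MASO. Its groups did not overlap, by a margin of 3.61 against 3.63 CPM. Neither passed, with log2 fold changes of 0.47 ± 0.39 SE (adjusted p = 0.562) and 0.74 ± 0.35 SE (adjusted p = 0.282).

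Dispatched releases the lipid-bearing ligand from the cells that make it. Of the 2 loci named Pm-Disph1, the one on scaffold 6654 held 2.07, 2.35 and 3.22 CPM in controls and 1.46, 1.40 and 2.24 CPM after the Pm-Tbr MASO. The one on scaffold 4490 had means of 2.82 ± 0.701 and 1.96 ± 0.361 CPM (SD, n = 3 per group). At both loci each Pm-Tbr MASO library was below the control of its number, and the groups overlapped. The log2 fold changes were -0.59 ± 0.39 SE and -0.52 ± 0.37 SE (adjusted p = 0.452 and 0.481). The Gli and Dispatched names therefore had values of opposite sign, none of which passed.

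Beyond the members, 92 loci of the pathway were followed in the same fit, the Gli and Dispatched loci among them. None was called by edgeR's quasi-likelihood test, where 2.28% of all tested loci did. At an unadjusted p under 0.05, 21 were lower and 2 higher, 23 in all, against 20.0% of all tested loci. The edgeR exact test, which called 7.65% of all tested loci, called 0 of the 92 as well. DESeq2, which called 9.32% of all tested loci, called 4 lower and 1 higher. The replicate block, which called 10.1% of all tested loci, called 1 lower and 1 higher. Those called by DESeq2 were Pm-Mks1L, Pm-Nk2-2 and 2 Pm-Ck1a1 loci, lower, and Pm-Fused on scaffold 595, higher. Over the 92 loci the median log2 fold change was -0.20, beside 0.01 over all tested loci and -0.05 over the 12599 with a gene name.

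Of the 4 ligand processing and release loci, all had negative values and none passed. Scube, a secreted protein that helps release the ligand in vertebrates, had 2 loci. On scaffold 10498 it held 6.90, 6.46 and 1.87 CPM in controls and 2.68, 3.78 and 1.90 CPM after the Pm-Tbr MASO. On scaffold 1535 it held 6.02, 5.47 and 0.755 CPM in controls and 1.17, 3.28 and 0.895 CPM. Control MASO replicate 3 was as low as the knockdown libraries at both, and the test called neither log2 value, -0.86 nor -1.18 (adjusted p = 0.409 and 0.447). Hhat is the acyltransferase that adds palmitate to Hedgehog, and Pm-Hhat-2 had a value of -0.41 (adjusted p = 0.494).

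Of the 8 loci of co-receptors and surface proteins, 4 had negative and 4 positive values and none passed. The glypican name Pm-Gpc35_1, a cell-surface proteoglycan, had 32.0, 44.6 and 19.0 CPM in controls and 67.6, 53.9 and 40.9 CPM after the Pm-Tbr MASO, with overlapping groups and a log2 fold change of 0.77 ± 0.34 SE (adjusted p = 0.263). Pm-Ptchd1, a patched-domain name and not the Hedgehog receptor, had a value of 1.01 ± 0.70 SE (adjusted p = 0.473), and the other glypican name, Pm-Gpc1246_1, one of 0.35 (adjusted p = 0.476).

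Of the 33 cytoplasmic regulator loci, 15 had negative and 18 positive values, with a median of 0.11. Casein kinase 1 alpha, which phosphorylates the Gli protein Ci and Smoothened in flies, gave the smallest adjusted p. Its most abundant locus, Pm-Ck1a1 on scaffold 274, held 168, 163 and 191 CPM in controls and 118, 90.1 and 96.0 CPM after the Pm-Tbr MASO. The groups did not overlap, and the log2 fold change of -0.78 ± 0.20 SE missed the threshold (adjusted p = 0.0867) and was called lower with the replicate block (adjusted p = 0.0471). A second Pm-Ck1a1 locus, on scaffold 4354 from 61265, had a value of -0.87 (adjusted p = 0.112). The other locus of its gene model, from 58334, had one of -0.08 (adjusted p = 0.926). Fused, a kinase of the pathway in flies, had at 1 of its 4 loci, on scaffold 595, 25.2, 21.0 and 32.2 CPM in controls and 39.4, 45.3 and 69.4 CPM after the Pm-Tbr MASO. Its groups did not overlap, and its value of 0.98 ± 0.29 SE missed the threshold (adjusted p = 0.115) and was called higher with the block (adjusted p = 0.0307).

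Of the 35 loci of ciliary regulators of the pathway, 28 had negative values, with a median of -0.32, and none passed. The 3 with the smallest adjusted p were Pm-Mks1L, a transition zone name, Pm-Arl13bl, a small GTPase of the cilium, and Pm-Tulp3L, an adaptor for receptor traffic into cilia. Pm-Mks1L held 43.1, 43.5 and 50.2 CPM in controls and 25.7, 31.0 and 25.4 CPM after the Pm-Tbr MASO. Its log2 fold change was -0.73 ± 0.21 SE (adjusted p = 0.106). Pm-Arl13bl on scaffold 511 had -0.62 and Pm-Tulp3L on scaffold 11935 had -0.82 (adjusted p = 0.123 and 0.152). Values ran from -0.62 to -0.32 over 3 Pm-Arl13bl loci and from -0.82 to -0.69 over 2 Pm-Tulp3L loci, with adjusted p up to 0.543 and 0.316. At the 3 loci of the list picked for the smallest adjusted p, the groups did not overlap. Over the list this held at 11 of 35 loci, or 31.4%, against 26.5% of all tested loci. Of the 11, 10 were lower, and 13.3% of all tested loci were lower without overlap. DESeq2 called Pm-Mks1L lower (adjusted p = 0.0340).

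Of 8 loci of genes reported downstream of Hedgehog in other animals, 7 had negative values, with a median of -0.65, and none passed. The T-box name Pm-Tbx2-3 held 212, 208 and 271 CPM in controls and 155, 119 and 147 CPM after the Pm-Tbr MASO at its first locus on scaffold 26 (log2 fold change -0.72 ± 0.21 SE, adjusted p = 0.116). The homeobox name Pm-Nk2-2 held 22.3, 11.5 and 8.30 CPM in controls and 1.34, 7.76 and 2.96 CPM after the Pm-Tbr MASO. Its groups did not overlap, and its value of -1.79 ± 0.63 SE did not pass (adjusted p = 0.169), though DESeq2 called it lower (adjusted p = 0.0369). The homeobox name Pm-Nkx3-2 had a value of -0.93 (adjusted p = 0.170). Groups did not overlap at 5 of these 8 loci, all lower, against 13.3% of all tested loci in that direction. Of the 5, 2 are Pm-Tbx2-3 loci of 1 gene model. Over all 92 pathway loci, 31 or 33.7% were without overlap, 24 of them lower and 7 higher. In the cytoplasmic list 14 of 33 loci, or 42.4%, were without overlap, 9 lower and 5 higher. Over all tested loci the share was 26.5%, with 13.3% in each direction. In the co-receptor and ligand processing lists, 0 of 8 and 0 of 4 loci were without overlap.

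**Figure D4:**
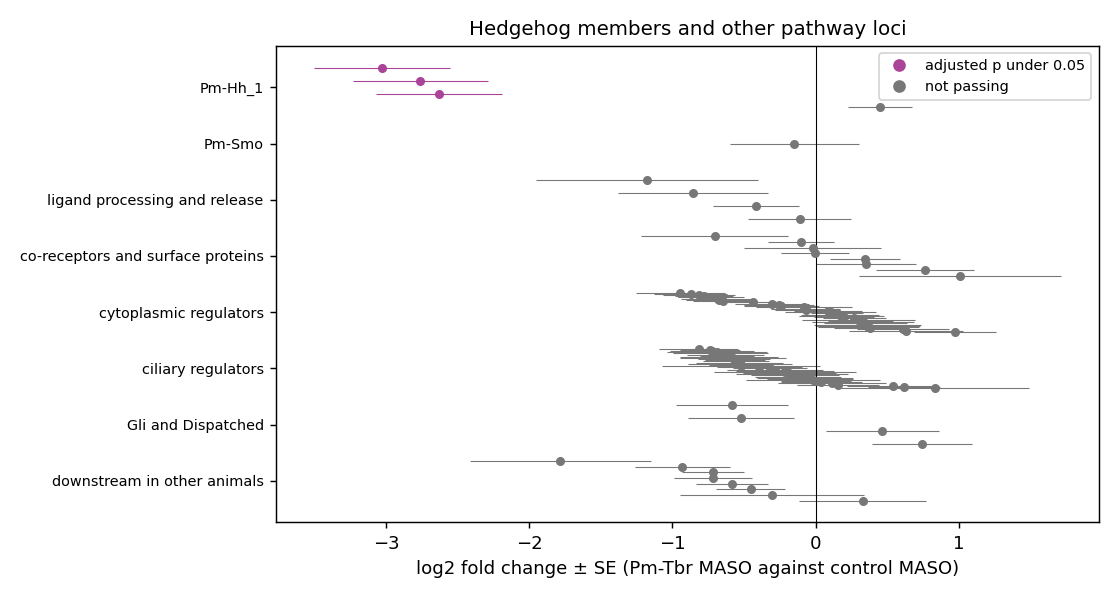
Log2 fold change with its SE (horizontal axis) of each Pm-Hh_1 and Pm-Smo locus and of the 92 other pathway loci by role, each point 1 locus. The purple points, 3 Pm-Hh_1 loci, passed an adjusted p of 0.05, and every other locus lies between -1.79 and 1.01.

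Profiles over the 6 libraries were compared by the root mean square difference between log2 CPM values centred on their own mean, among 9813 named loci with a mean of at least 5 CPM. The loci most like Pm-Hh_1 on scaffold 335 were named Pm-Xpr1_1, Pm-Tirc5 and Pm-Sptlc2_1, at distances of 0.058, 0.083 and 0.083. For Pm-Smo they were Pm-Fic, Pm-Parp6 and Pm-Kcnma1, at 0.12, 0.12 and 0.15. For the more abundant Pm-GliA locus they were Pm-Htatsf1L_1, Pm-Tk2 and Pm-Lon, at 0.081, 0.11 and 0.13.

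The same measure was then applied to the 3 fallen loci, a choice made after their values were seen. Without the level limit, among 12599 named loci, the nearest profile to each was another of the 3, at 0.17 between scaffold 2917 and the first locus on scaffold 3891 and at 0.21 between both loci of scaffold 3891. With the limit, the nearest were Pm-Cyp2L69, a cytochrome P450 name, for scaffold 2917 at 0.18, Pm-Glyt_2 for the first locus on scaffold 3891 at 0.19, and the homeobox gene Pm-Gsc (goosecoid) for the second at 0.26. These distances describe 6 libraries that share their group difference, and they carry no test.

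In the authors' deposited table the 3 fallen loci had log2 fold changes of -2.66, -2.82 and -3.03, with false discovery rates of 0.0101, 0.0105 and 0.0112. The authors' deposited table gave Pm-Hh_1 on scaffold 335 a value of 0.49 with a false discovery rate of 0.343, and Pm-Smo one of -0.20 with 0.820. The sources used here do not state the model behind these values.

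**Figure D5:**
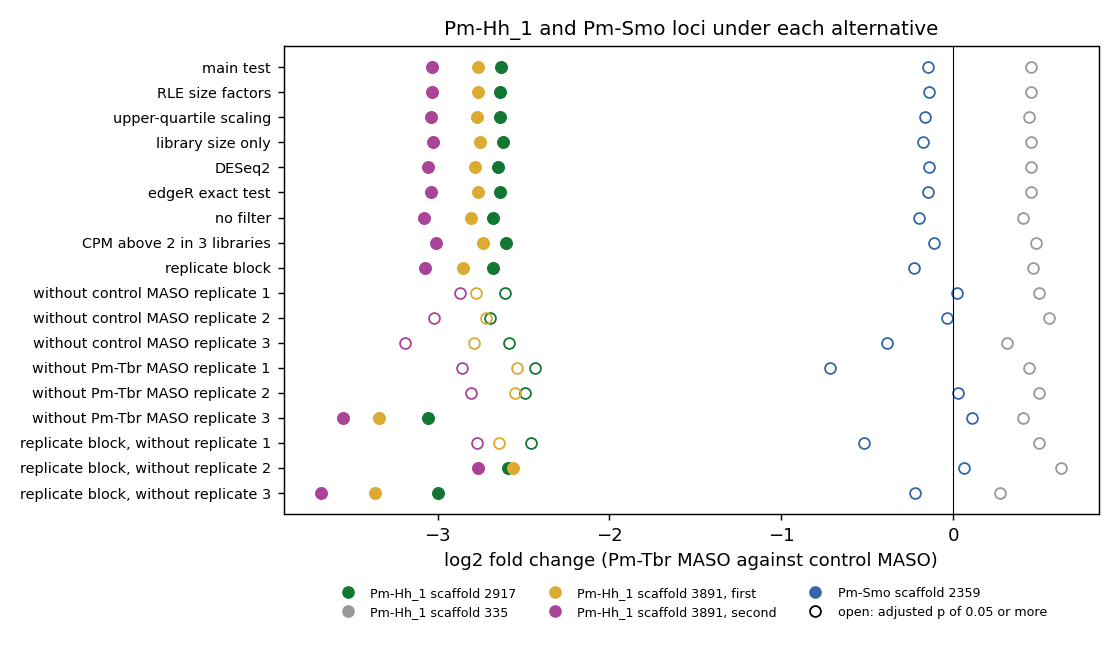
Log2 fold change (horizontal axis) of the 5 loci in the reported test and under alternative tests, scalings, filters, the replicate block and with libraries left out (rows). Fits with loci filtered again are not drawn. Filled points had an adjusted p under 0.05 and open points did not. The 3 fallen Pm-Hh_1 loci stay between -3.68 and -2.43 in every row, and they turn open in 6 of the drawn rows that leave out a library or a pair.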

How the data were processed

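Each sample's file holds read counts for 80165 loci, whole numbers that the authors deposited with 5 summary lines. The submitters' processing notes name TopHat2 2.0.12, Cufflinks 2.2.1, HTSeq 0.6.1p1 and edgeR 3.10.5 among others. The sources used here give neither genome build nor strand setting. The summary lines, 49.0% to 50.6% of each file and mostly reads aligned to several places, were kept out of library sizes and tests. Gene names, gene models and positions come from the authors' deposited table of 27630 loci, whose other columns are, per the file headers, log2 fold change, log2 CPM, the F score, the p-value and the false discovery rate. The reference gene table matched 0 identifiers of the files and was not used.

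Counts were fitted with edgeR 4.0.16 in R 4.3.3 (filterByExpr, TMM scaling, quasi-likelihood F test with group alone, Benjamini-Hochberg adjustment over 44120 loci). The SE is the size of the log2 fold change over the square root of F. The labels do not say that the 3 samples of a group are separate spawnings, so the p-values reflect the spread of these samples only, which may be technical. Counts of samples within a group differed by more than sampling noise, with a chi-square over its degrees of freedom of 37.9 to 53.8. Same-numbered libraries deviated together (r = 0.53, 0.22 and 0.56 across loci for numbers 1, 2 and 3), so the pairing comes from the counts.

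Members and lists were chosen with earlier results of these data known. All members are named, and of each pathway list the 3 loci with the smallest adjusted p. Names were matched to the spelling of the files afterwards, with Pm-Cdo1, Pm-CdoL and Pm-Fbxw10 left out as other or uncertain genes. Alternatives were another tool (DESeq2 1.42.0), the exact test of edgeR, scalings, filters, the block, summed loci and each library left out.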

Additional observations from a re-analysis of the deposited data

How the results depend on the processing

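The 3 falls at Pm-Hh_1 kept their sign and passed under all 8 alternatives that used the 6 libraries and kept loci apart (scalings, filters, DESeq2, the edgeR exact test and the block). With loci of 1 gene name added up, 0 members were called. Over all loci, DESeq2 called 4110, the edgeR exact test 3374 and the replicate block 4455, and of the other pathway loci DESeq2 called 5 and the block 2.

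Libraries were left out singly, also with loci filtered again, and in pairs under the block, the last 2 being chosen after seeing the data. Calls over all loci then ranged from 0 to 5722, member calls from 0 to 3 and calls among the other pathway loci from 0 to 6. The count of 0 over all loci came from edgeR without control MASO replicate 2, with 6643 loci at an unadjusted p under 0.05, and with loci filtered again without control MASO replicate 1 or 2, with 8561 and 6886. The log2 fold change ranged from -3.064 to -2.434 on scaffold 2917, from -3.362 to -2.538 at the first locus on scaffold 3891 and from -3.680 to -2.766 at the second. The 3 calls were lost under the block without pair 1, with adjusted p from 0.0577 to 0.0612. Pm-Smo ranged from -0.724 to 0.110, and the cause of its change of sign was not tested. Pm-Hh_1 on scaffold 335 stayed positive and uncalled in all 23 alternatives. Counts of 7 to 20 limit the precision at the fallen loci.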

Other observations

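The name Pm-Ck1a1 was carried by 7 loci whose values differed in sign. The 4 most abundant, on scaffolds 274, 12402, 15214 and 4354 (from 61265), had negative values, while 2 low ones had values of 0.61 and 0.63. The other locus on scaffold 4354, from 58334 in the same gene model, had a value of -0.08 (adjusted p = 0.926). None of the 7 passed in edgeR's quasi-likelihood test.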
